A study of Mus musculus with 6 samples.

Results

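The open chromatin of 6 genes was described: Etnppl, Aldh1a1, Cntn1, Prom1, Fbln1 and Scrg1, which the study names as astrocyte genes regulated by the glucocorticoid receptor (GR). ATAC-seq peak lists of astrocyte nuclei from the primary visual cortex (V1) were used, with 3 GR-Con and 3 GR-KO libraries. All mice carried GR fl/fl, floxed alleles of the GR gene Nr3c1. Both conditions received an AAV2/5 vector with the astrocyte promoter GfaABC1D and EGFP-KASH at postnatal day 0 to 1, which carried Cre in GR-KO and the inactive ΔCre in GR-Con. At postnatal day 21, V1 of 3 to 4 animals was pooled for each library and 50000 GFP+ nuclei were sorted, so each sample is a pool and p-values measure the spread between pools. The gate takes nuclei in which the vector expressed EGFP-KASH, whether or not both GR alleles had been recombined. For each gene the peaks were taken whose summit lay in the gene or within 100 kb of its transcription start site (TSS) in the GENCODE annotation of mm10. This gave 184, 183 and 196 peaks in the GR-Con libraries and 149, 155 and 151 in the GR-KO libraries. The whole lists held 185393, 184618 and 198929 peaks in GR-Con and 179462, 183971 and 184056 in GR-KO. Summits within 200 bp of a stronger one were joined to it, and the 6 lists together held 257 such elements at the 6 loci, of 281376 in all.

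ATAC-seq inserts sequencing adapters into DNA that is not wrapped in nucleosomes, so a peak marks an accessible promoter or enhancer. GR is a nuclear receptor that moves into the nucleus when it binds a glucocorticoid and attaches to DNA as a dimer, at a palindrome with AGAACA-like arms. It is known in many tissues for recruiting chromatin remodelling complexes and for switching on genes from distal enhancers, and the hormone rises in rodents during the later weeks of postnatal life. Etnppl encodes the lyase that breaks down phosphoethanolamine, and Aldh1a1 a dehydrogenase that makes retinoic acid from retinaldehyde. Cntn1 encodes contactin 1, an immunoglobulin-type adhesion protein held to the membrane by a lipid anchor, and Prom1 encodes prominin 1 (CD133), a membrane protein of cell protrusions. Fbln1 encodes fibulin 1, a secreted glycoprotein of the extracellular matrix, and Scrg1 a small secreted protein.

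The reference sequence around the strongest changes is shown first, because the values that follow belong to these summits. Each sequence is the + strand of mm10 around the element's central summit, and the distance in its name is counted from the TSS in the direction of the gene. Capitals mark a match to the GR palindrome (GNACA and TGTNC with 3 free bases between them) or, where there is none, to a single arm, AGAACA, on either strand (TGTTCT when read from the other strand). Sequences without capitals hold neither. They lie at chr3:130617451-130617571, chr3:130634027-130634147, chr3:130649652-130649772, chr15:92112579-92112699, chr5:44106466-44106586 and chr8:57410159-57410279, in the order given.
Etnppl +0.063 kb: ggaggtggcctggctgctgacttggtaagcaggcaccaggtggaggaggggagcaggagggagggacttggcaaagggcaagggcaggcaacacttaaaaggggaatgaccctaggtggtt
Etnppl +16.6 kb: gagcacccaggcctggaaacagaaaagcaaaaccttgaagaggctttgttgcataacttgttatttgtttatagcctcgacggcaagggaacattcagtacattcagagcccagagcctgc
Etnppl +32.3 kb: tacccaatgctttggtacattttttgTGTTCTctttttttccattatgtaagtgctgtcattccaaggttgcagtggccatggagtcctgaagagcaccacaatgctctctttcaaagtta
Cntn1 +61.5 kb: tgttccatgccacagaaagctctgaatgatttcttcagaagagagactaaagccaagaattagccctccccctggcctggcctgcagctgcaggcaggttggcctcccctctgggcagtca
Prom1 -4.49 kb: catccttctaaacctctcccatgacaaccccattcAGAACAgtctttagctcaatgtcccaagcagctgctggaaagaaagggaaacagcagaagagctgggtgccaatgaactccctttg
Scrg1 -45.7 kb: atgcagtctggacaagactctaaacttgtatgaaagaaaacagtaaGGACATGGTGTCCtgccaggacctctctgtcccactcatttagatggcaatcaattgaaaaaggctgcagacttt

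The elements called changed at the 6 loci were nearly all lower in GR-KO. Of the 257 elements, 202 had a summit in at least 2 libraries and were tested, and the other 55 were seen in 1 library. Elements were ranked in each library by the −log10 p that the peak caller gave them, and the rank scores of the conditions were compared with limma over all 214328 elements tested. By this measure 10 of the 202 were lower in GR-KO at an adjusted p under 0.05, 4.95% of them, against a background of 0.412% of all elements tested. At Aldh1a1, 1 element was called higher, against a background of 0.308%. Of the 10, 8 had a peak in all 6 libraries, and the other 2 are adjoining summits at the Etnppl start site with no peak in GR-KO. The 10 lower elements were 5 at Etnppl, 2 at Cntn1, 2 at Scrg1 and 1 at Prom1, with 0 at Fbln1 and 0 at Aldh1a1. Without the adjustment, 51 elements of the 6 loci were lower and 3 higher at p under 0.05, where 5.43% of all elements tested were lower and 5.95% higher. Of these, 7 of the 51 and all 3 of the higher elements had peaks in 1 condition alone, which fixed their direction. The rank score was lower in GR-KO at 76.2% of the 202 elements and at 48.4% of all elements tested.

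A peak's fold and p-value together fix the summit pileup, the number of reads extended over the summit base, and the local background that the caller expected there. Pileups are given below as whole numbers, and scaled pileups are divided by the library's background floor, the lowest background the caller used in that library (4.28 to 4.92 read extensions). The 98 elements of the 6 loci with a peak in all 6 libraries had a median log2 difference in scaled pileup of −0.31 between GR-KO and GR-Con, and all 115879 such elements had a median of −0.05. Limma called 36 of the 98 lower and 0 higher, where the background was 3.76% lower and 1.89% higher. In that fit the spread was pooled over elements of like height, and an element's own spread had no weight. With each element's own spread given weight by leaving out the variance trend, 18 of the 98 were lower and 0 higher, against backgrounds of 1.69% and 0.664%, and this fit's adjusted p-values are the ones given below for pileups. When pileups were scaled by their library median in place of the floor, 30 were lower and 0 higher, against 2.71% and 4.04%. The 3 GR-KO pileups all lay below the 3 GR-Con pileups, after scaling by the floor, at 45 of the 98 elements, against 13.2% of all, and they all lay above at 0, against 7.03%.

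**Figure D1:**
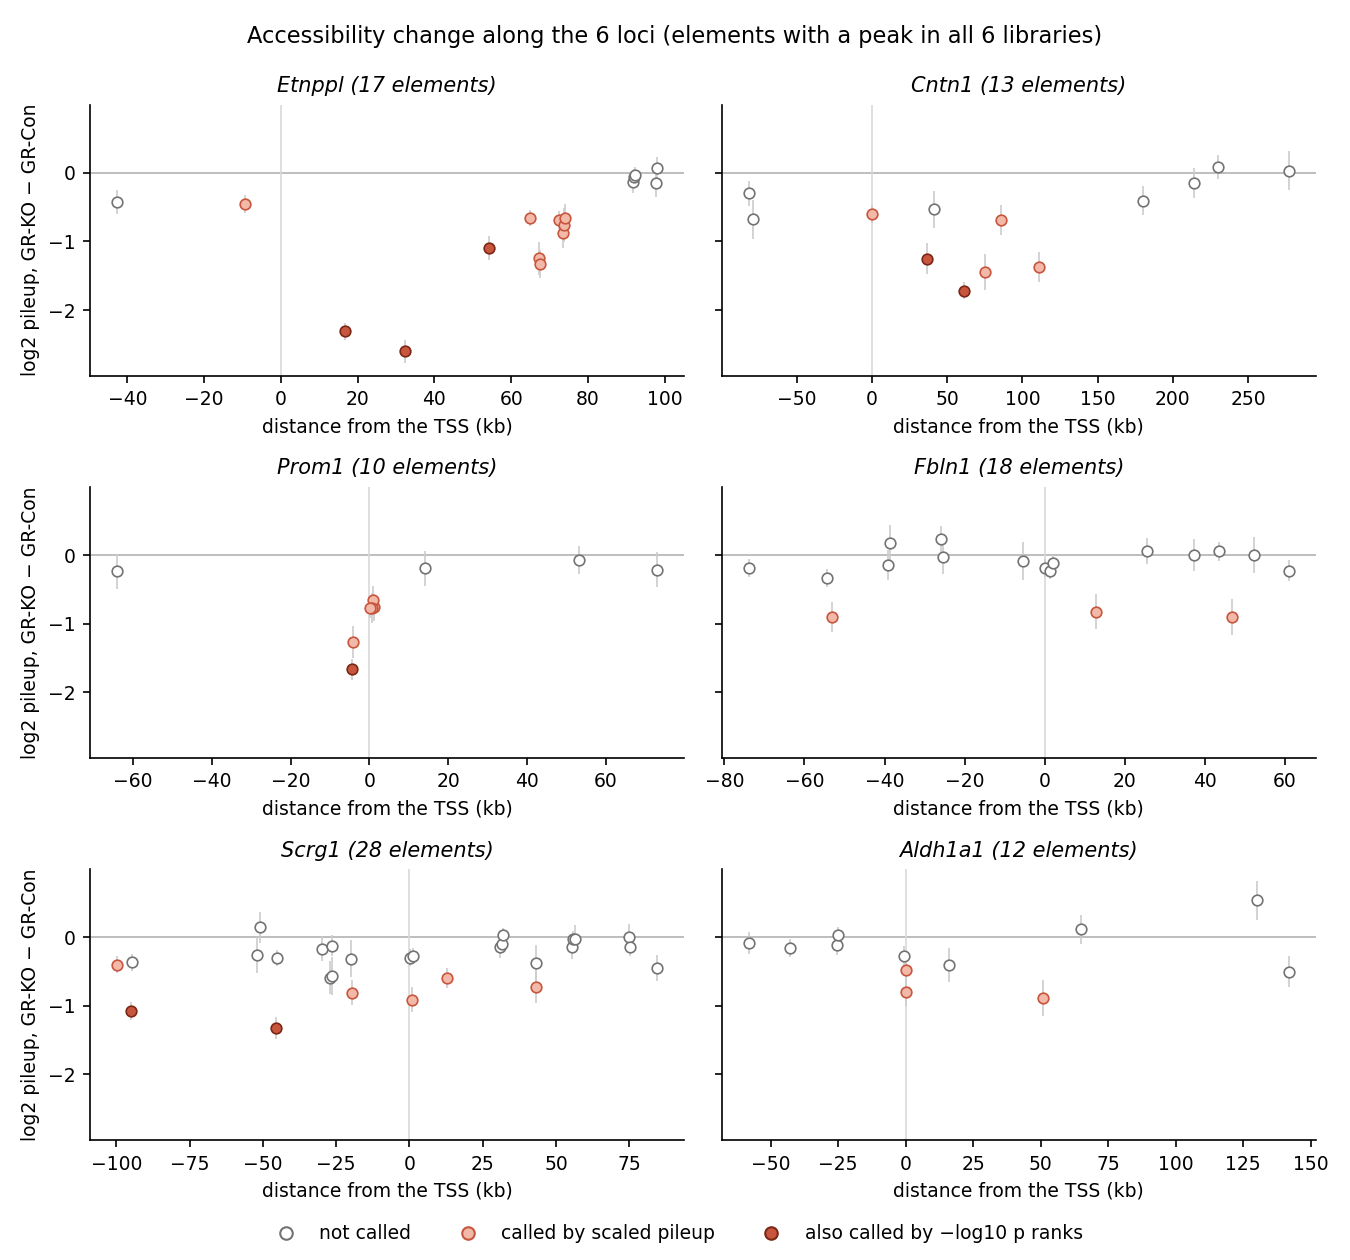
Each panel is 1 gene, with distance from its TSS in kb on the x axis and the log2 difference in scaled summit pileup, GR-KO minus GR-Con, on the y axis. Points are the 98 elements with a peak in all 6 libraries: white not called, pale red called by the trend fit of scaled pileup (36), dark red also called by −log10 p ranks, with bars for the SE of the trend fit. Points lie mostly below 0, by a median between −0.71 at Prom1 and −0.13 at Fbln1.

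GR-Con 3 stood apart, as the lowest of its condition at 63 of the 98 elements in scaled pileup, where GR-Con 1 was lowest at 14 and GR-Con 2 at 21. The share of all elements at which it was lowest was not counted. Over the whole lists, GR-Con 3 also had the lowest median fold, 4.40, the other libraries lying between 4.66 and 4.89. Its background floor was also the highest, 1.15 times the smallest floor of the 6 libraries, the other 5 lying between 1.00 and 1.06. The trend fit of scaled pileup called 35 elements lower without GR-Con 3, 21 without GR-Con 1 and 25 without GR-Con 2. The −log10 p ranks called 7 lower without it, against 3 without GR-Con 1 and 3 without GR-Con 2. For the targeted gene, an intronic element 91.0 kb past the annotated Nr3c1 TSS had pileups of 140, 151 and 130 in GR-Con and 36, 24 and 33 in GR-KO (adjusted p = 0.000601, −log10 p ranks, limma). Another at +58.4 kb had peaks in GR-KO alone, with pileups of 39, 32 and 42, through which alone it entered the test. The labels give no coordinates for the floxed part, so these do not check the deletion. The promoters of 6 of 6 astrocyte marker genes held a peak in all 6 libraries, with a summed scaled pileup of 434 to 506 in GR-Con and 462 to 507 in GR-KO. Neuron markers did so at 5 of 6 promoters (80.4 to 88.1 and 78.5 to 86.6), oligodendrocyte precursor markers at 2 of 2 (80.6 to 102 and 80.3 to 85.7) and endothelial markers at 2 of 3 (9.97 to 13.2 and 8.98 to 11.4). Oligodendrocyte markers did so at 1 of 4, with no peak at Mog or Sox10 in any library (6.95 to 10.5 and 3.97 to 10.7), and microglial markers at 1 of 4, with none at Cx3cr1 or Aif1 (14.4 to 17.3 and 9.57 to 19.8). In no list did the summed level separate the conditions, but single markers did. Gfap was higher in every GR-KO library (80.7 to 86.5 against 63.7 to 73.2), and Gja1 (65.1 to 69.1 against 69.6 to 75.5), Rbfox3 (17.7 to 19.4 against 19.7 to 25.4), Gad2 (2.57 to 4.41 against 4.87 to 6.06) and Cldn5 (3.53 to 4.83 against 5.29 to 8.81) were lower in every one. Over all elements with a peak in all 6 libraries, every GR-KO library lay below every GR-Con library at 13.2%, and above at 7.03%. The part of these markers in the results at the 6 loci was not tested. In bulk nuclei, fewer open cells and less opening per cell cannot be told apart.

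Etnppl (chr3:130617448-130637521, + strand) had 45 elements, 37 of them tested, and the most called lower of the 6 genes by −log10 p ranks and in the trend fit, while without the trend it had 5, as did Cntn1. Its start site lost its peaks: the element at the TSS had pileups of 94, 105 and 60 in the 3 GR-Con libraries and no peak in any GR-KO library. A neighbouring summit 320 bp past the TSS had pileups of 86, 87 and 50 in GR-Con and again no peak in GR-KO. In each GR-Con library both summits belong to 1 region of accessibility, so they are not separate sites. They entered the test through GR-Con alone and an absent peak was ranked last, so their direction was fixed and their calls by either ranking are a description, and the lists do not say how far below the authors' calling threshold the GR-KO libraries lay. By fold ranks, this element at the TSS was the 1 of the 202 called lower, where the background was 0.0523%, and 0 were called higher, where it was 0.0247%, so no element with a peak in GR-KO was called by fold. That call was lost whenever any 1 library was left out and with a replicate block (adjusted p up to 0.301, limma). Unadjusted, fold ranks gave 33 elements lower and 9 higher at p under 0.05, where 5.35% of all elements tested were lower and 5.48% higher.

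Inside the gene, the intronic element at +16.6 kb was the tallest changed element of the 6 loci. Its pileups were 556, 637 and 380 in GR-Con and 100, 115 and 89 in GR-KO. The scaled means were 118 ± 36.5 and 23.1 ± 3.32 (SD, n = 3), so GR-Con was 5.11-fold higher, and the lowest GR-Con pileup was well above the highest GR-KO pileup. The log2 difference was −2.31 ± 0.23 (SE, adjusted p = 0.00192, limma), and the element was also lower by −log10 p ranks (adjusted p = 0.00071). Within the same open region, GR-KO 2 and GR-KO 3 each had a further small summit at +16.9 kb, with pileups of 29 and 32, where no GR-Con library had a summit of its own.

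Past the end of the gene, at +32.3 kb, pileups of 232, 292 and 147 in GR-Con stood against 29, 33 and 43 in GR-KO. This was the steepest loss among elements with a peak in all 6 libraries, with scaled means of 50.5 ± 19.1 and 8.0 ± 1.77 (SD, n = 3), a 6.32-fold difference (log2 −2.60 ± 0.28, adjusted p = 0.00228, limma). By −log10 p ranks its adjusted p was 0.000745. At +54.1 kb, nearer to the start of Ostc, a subunit gene of the oligosaccharyltransferase complex, pileups were 138, 115 and 117 in GR-Con and 61, 53 and 54 in GR-KO (log2 −1.10 ± 0.16, adjusted p = 0.00776, limma). The groups did not overlap at either element. Between 64.9 and 74.1 kb past the TSS the trend fit called 7 elements lower, with log2 differences of −0.66 to −1.33. Without the trend, those at +67.1 kb (adjusted p = 0.00692) and +67.4 kb (0.0282, both limma) remained. The window also holds elements at which the conditions overlapped, among them the one of highest mean rank over the 6 libraries, at +92.2 kb, with pileups of 466, 499 and 411 in GR-Con and 446, 453 and 408 in GR-KO (adjusted p = 0.818 by −log10 p ranks, limma).

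At the +16.6 kb element the fold over local background differed little between the conditions although the pileup fell. The local background solved from the lists was 35.0, 38.3 and 23.7 read extensions in GR-Con and 6.08, 6.38 and 5.06 in GR-KO, and it is set from reads in a window around the summit. The fold was 15.5, 16.2 and 15.4 in GR-Con and 14.3, 15.7 and 14.9 in GR-KO (adjusted p = 0.816 by fold ranks, limma). At +32.3 kb the GR-KO background was at the library floor (4.54, 4.28 and 4.35) and that of GR-Con was 11.2, 11.5 and 8.64. There the fold did separate, at 19.1, 23.4 and 15.4 in GR-Con and 5.42, 6.44 and 8.23 in GR-KO, with an adjusted p of 0.0675 by fold ranks (limma).

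**Figure D2:**
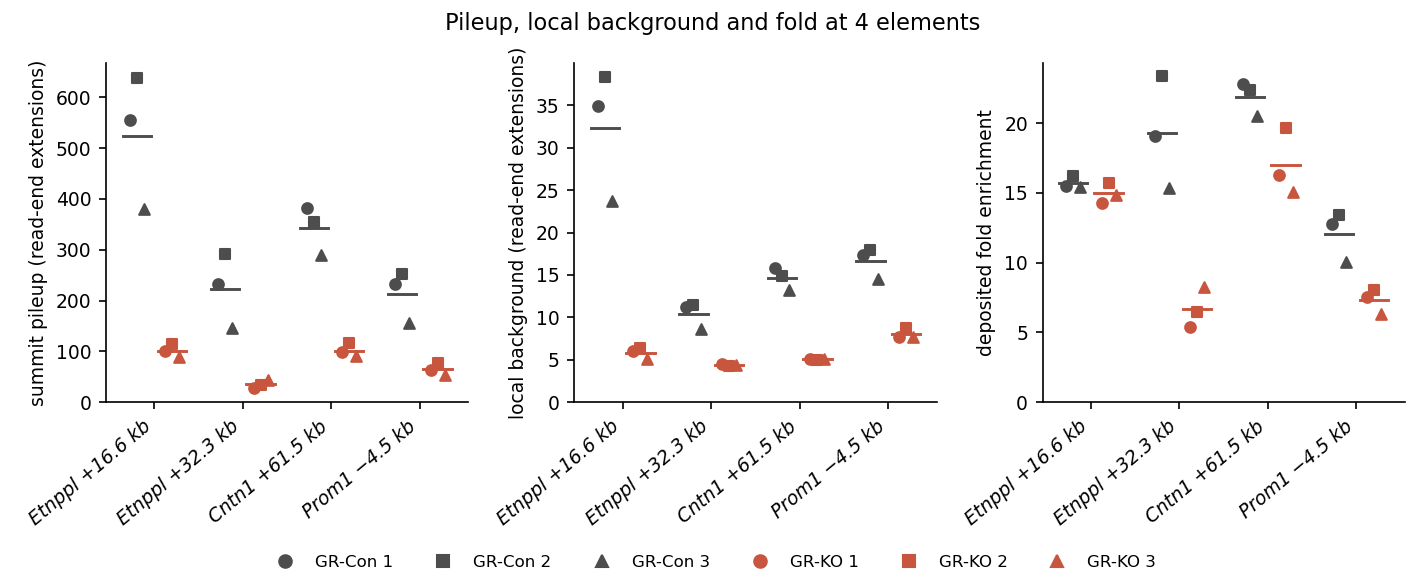
Summit pileup, local background (both in read extensions) and fold in each of the 6 libraries at 4 elements, 1 panel per quantity, all axes from 0, 1 point per library and a short line for each condition's mean. At Etnppl +16.6 kb pileup and background both fall from GR-Con to GR-KO, by several fold, while the folds of all 6 libraries lie between 14.3 and 16.2.

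Aldh1a1 (chr19:20492715-20643465, + strand), the other enzyme gene, had 42 elements and 24 tested, with none called lower by −log10 p ranks. At its TSS the pileups were 204, 223 and 167 in GR-Con and 134, 153 and 128 in GR-KO, and after scaling by the floor GR-KO 2 lay above GR-Con 3 (log2 −0.48 ± 0.18, adjusted p = 0.227, limma). The trend fit did call it, at an adjusted p of 0.0122. The summit 265 bp past the TSS had 108, 93 and 69 in GR-Con and 57, 46 and 46 in GR-KO (log2 −0.80, adjusted p = 0.0793, limma). Its strongest element, 24995 bp before the TSS, had nearly the same pileup in every library: 465, 462 and 460 in GR-Con and 450, 475 and 454 in GR-KO. The one element called higher at the 6 loci adjoined it, with summits of 94, 109 and 102 in the GR-KO libraries alone, through which it entered the test. That position was inside a called region in all 6 libraries, and when each element took the strongest peak that covered it, its adjusted p was 0.967. A weak element 121621 bp past the TSS had peaks in GR-Con alone, with pileups of 22, 17 and 17.

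Cntn1 (chr15:92051165-92341967, + strand) had 44 elements and 37 tested, and both elements called lower by −log10 p ranks lay in the introns of the gene. The leading one, at +61.5 kb, had pileups of 383, 355 and 290 in GR-Con and 98, 116 and 91 in GR-KO. Scaled means were 76.8 ± 15.8 and 23.2 ± 3.37 (SD, n = 3), a 3.31-fold difference (log2 −1.72 ± 0.19, adjusted p = 0.00257, limma). By −log10 p ranks its adjusted p was 0.000272, the smallest of the 202, and it stayed under 0.05 in every setting tried for these ranks. Its fold separated the conditions too, at 22.8, 22.4 and 20.5 in GR-Con and 16.3, 19.7 and 15.1 in GR-KO, though fold ranks did not call it (adjusted p = 0.168, limma). A weaker element at +36.7 kb had 68, 72 and 79 in GR-Con and 35, 28 and 27 in GR-KO (log2 −1.25 ± 0.15, adjusted p = 0.00339, limma).

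Further along Cntn1, pileups of 86, 74 and 78 against 30, 21 and 42 at 110761 bp past the TSS gave a log2 difference of −1.37 (adjusted p = 0.015, limma). At +75.4 kb the values were 32, 50 and 51 against 16, 18 and 13 (log2 −1.45, adjusted p = 0.0067, limma). Weak elements at −76.7 kb (25, 16 and 17) and +55.5 kb (17, 35 and 19) had peaks in GR-Con alone, in all 3 libraries. The promoter held 195, 213 and 225 in GR-Con and 182, 114 and 121 in GR-KO. It did not overlap between conditions, but GR-KO 1 lay close to GR-Con and the loss was not called (log2 −0.60 ± 0.18, adjusted p = 0.117, limma) except in the trend fit (adjusted p = 0.000478).

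Prom1 (chr5:43993620-44102032, − strand) had 31 elements and 25 tested. Its element called by −log10 p ranks lay 4494 bp before the annotated TSS and had pileups of 233, 253 and 155 in GR-Con and 64, 77 and 54 in GR-KO. Scaled means were 48.2 ± 14.6 and 14.8 ± 2.85 (SD, n = 3), a 3.25-fold difference (log2 −1.67 ± 0.24, adjusted p = 0.0083, limma). Its adjusted p by −log10 p ranks was 0.00369, and 0.0964 without GR-Con 1, 0.0906 without GR-Con 2, 0.115 without the variance trend and 0.107 with the strongest covering peak. An adjoining summit 4146 bp before the TSS moved alike, with 85, 82 and 52 in GR-Con and 26, 30 and 31 in GR-KO (log2 −1.27, adjusted p = 0.0226, limma). Just past the TSS, at +0.26 kb, the scaled pileups were 46.8, 36.6 and 26.4 in GR-Con and 20.7, 21.7 and 20.3 in GR-KO, where the 3 GR-KO libraries lay close together and below every GR-Con library (log2 −0.77, adjusted p = 0.0765, limma). A weak element at +15.0 kb had peaks in GR-Con alone, with pileups of 16, 11 and 13.

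Of the secreted proteins, Fbln1 (chr15:85205949-85286535, + strand) had 44 elements and 34 tested, and none was called by −log10 p ranks. Its TSS element had 193, 196 and 180 in GR-Con and 168, 162 and 155 in GR-KO, a difference of log2 −0.19 (adjusted p = 0.78 by −log10 p ranks, limma). Its strongest element, 2.05 kb into the gene, had 476, 491 and 464 in GR-Con and 428, 428 and 435 in GR-KO, 1.08-fold apart after scaling (adjusted p = 0.554 by −log10 p ranks, limma). At 2 distal elements the pileup was called lower without the trend. The trend fit called 3, those 2 and the element at +46.8 kb (log2 −0.90). At 53174 bp before the TSS, nearer to Ribc2, the values were 79, 77 and 60 against 38, 39 and 35 (log2 −0.90, adjusted p = 0.0313, limma), and at 12875 bp past the TSS the log2 difference was −0.82 (adjusted p = 0.0478). A weak element 46391 bp before the TSS had peaks in GR-KO alone, with pileups of 16, 14 and 16.

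Scrg1 (chr8:57455923-57477585, + strand) had 51 elements and 45 tested, and both elements called by −log10 p ranks lay far before its TSS. At −45.7 kb the pileups were 163, 193 and 141 in GR-Con and 58, 64 and 71 in GR-KO. The difference was 2.53-fold after scaling (log2 −1.32 ± 0.19, adjusted p = 0.00774, limma), with an adjusted p of 0.00546 by −log10 p ranks. The fold of every GR-Con library (7.48, 8.61 and 6.36) was above that of every GR-KO library (3.97, 4.25 and 4.56). At −95.2 kb, nearer to the start of Hand2, a transcription factor gene, the pileups were 253, 265 and 234 in GR-Con and 148, 99 and 107 in GR-KO (log2 −1.07 ± 0.18, adjusted p = 0.0149, limma). When each element took the strongest peak that covered it, neither was called (adjusted p = 0.633 and 0.663, limma). By −log10 p ranks the −45.7 kb call was also lost with a replicate block (0.0555) and without the variance trend (0.0855). It was lost as well without GR-Con 1 (0.09185) and without GR-Con 2 (0.0922, all limma). At −95.2 kb only 1 of the 6 fits that left out a library kept the call.

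Closer to Scrg1 the changes were smaller. The TSS had 229, 258 and 214 in GR-Con and 194, 179 and 182 in GR-KO (adjusted p = 0.543 by −log10 p ranks, limma), and the flank 717 bp into the gene had 117, 112 and 100 against 52, 72 and 49 (log2 −0.91, adjusted p = 0.0397, limma). At +55.8 kb, next to Hmgb2, a chromatin protein gene, the tallest element of the window had 632, 675 and 631 in GR-Con and 649, 639 and 572 in GR-KO, and the conditions overlapped.

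Set in order of their log2 differences at the start site, the genes ran from Etnppl, without a peak in GR-KO, to Cntn1 (−0.60 ± 0.18, SE), Aldh1a1 (−0.48 ± 0.18), Scrg1 (−0.30 ± 0.16) and Fbln1 (−0.19 ± 0.15). Among these last 4, neighbours in that order differed by less than their SEs added together. At Prom1 the summit nearest the TSS was a weak shoulder without a peak in every library, so it was left out of the order. The next Prom1 summit, at +0.26 kb, had a peak in all 6 libraries and a log2 difference of −0.77, beyond that of Cntn1. Among elements with a peak in all 6 libraries, the steepest pileup losses, at Etnppl +32.3 kb, Etnppl +16.6 kb, Cntn1 +61.5 kb, Prom1 −4.49 kb, Cntn1 +75.4 kb and Cntn1 +111 kb, all lay 4.49 kb or more from the annotated TSS. Of the 98 such elements only 10 lay within 1 kb of the TSS, and the start site of Etnppl was not among the 98. Within 1 kb of the TSS, the trend fit called 7 of 10 elements with a peak in all 6 libraries, and 36 of the 98 over the whole windows. Its background was 3.76% of all such elements, and no share was computed for elements near the TSS of other genes. Without the trend, several of the 7 were not called: the Cntn1 and Aldh1a1 TSS, Aldh1a1 265 bp past it and Prom1 +0.26 kb.

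**Figure D3:**
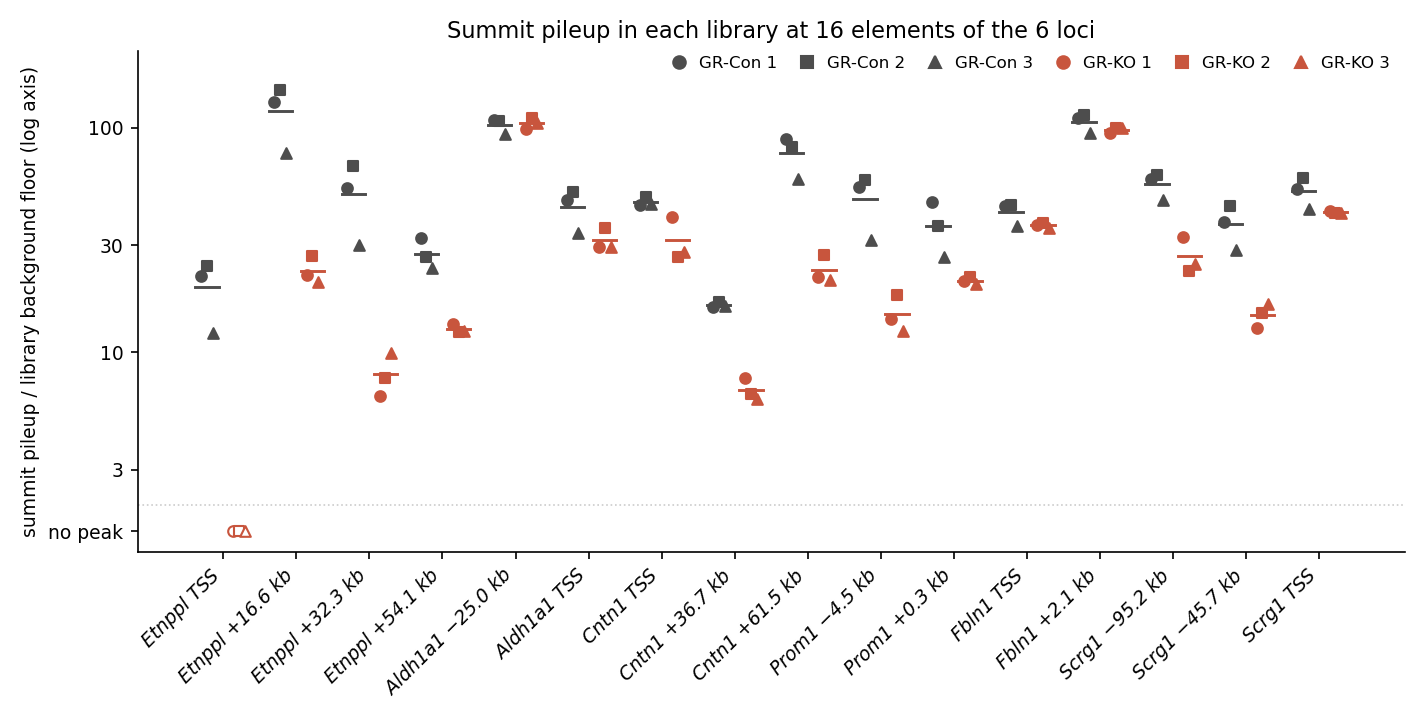
Summit pileup over the library's background floor (log axis) in each library at 16 elements of the 6 loci, 1 point per library and a short line for each condition's mean, with libraries that had no peak drawn as open points on the lowest line. At Etnppl +16.6 kb and +32.3 kb and at Cntn1 +61.5 kb the GR-KO points sit below all GR-Con points by 3-fold or more in the mean, and 24995 bp before the Aldh1a1 TSS the points overlap.

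The mean number of peaks was lower in GR-KO in all 6 windows, and the exact permutation test used for these counts cannot reach p under 0.05 with 3 libraries against 3. Etnppl had 32, 34 and 33 peaks in GR-Con and 25, 25 and 23 in GR-KO, and Cntn1 had 32, 35 and 32 against 22, 23 and 24. Prom1 had 20, 23 and 27 against 18, 19 and 16. In these 3 genes every GR-KO library had fewer peaks than every GR-Con library, which gives the smallest p that 3 against 3 allows (exact two-sided permutation test p = 0.1, Benjamini-Hochberg adjusted over the 6 genes 0.2). The whole lists separated in the same way, each GR-KO list being shorter than each GR-Con list. With equal list lengths the mean difference was smaller at all 6 loci, and the same 3 genes still separated. Etnppl then had 30, 33 and 29 against 25, 24 and 22, and Prom1 had 20, 22 and 20 against 18, 19 and 16. With peaks held to a q-value under 0.01, Prom1 had 19, 21 and 20 against 17, 19 and 15 and its conditions overlapped, while Aldh1a1 and Fbln1 then separated. At the deposited threshold, Aldh1a1 had 28, 22 and 28 against 22, 18 and 20, and Fbln1 had 31, 29 and 32 against 26, 28 and 29 (both exact p = 0.2, adjusted 0.24). Scrg1 had 41, 40 and 44 against 36, 42 and 39, and its conditions overlapped (exact p = 0.4). Of the 202 tested elements, 6 had peaks in all 3 GR-Con libraries and none in GR-KO, against 1.24% of all elements tested, and 2 had the opposite pattern, against 0.677%. The 6 were 2 at Etnppl, 2 at Cntn1, 1 at Prom1 and 1 at Aldh1a1.

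**Figure D4:**
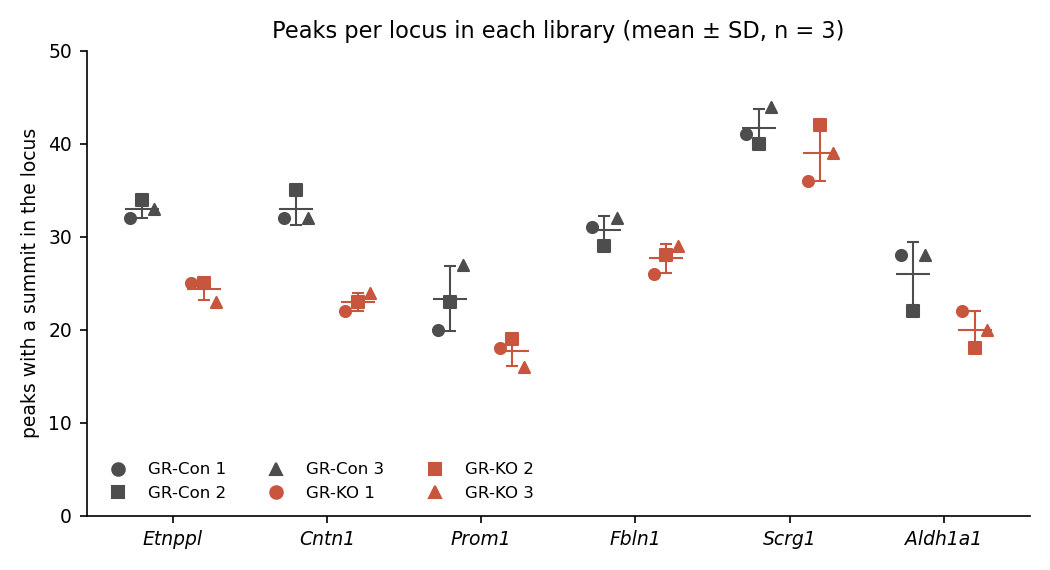
Number of peaks with a summit in each locus, 1 point per library and a line with bars for the mean ± SD of 3 libraries. All GR-KO points lie below all GR-Con points at Etnppl, Cntn1 and Prom1, and the points of Scrg1 overlap.

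The share of elements with a GR palindrome at these loci was near that of all elements. Within 100 bp on either side of the summit, GNACA and TGTNC 3 bases apart were found in 1 of the 202 tested elements, 0.495%, and in 0.586% of all elements tested. Among all 882 elements called lower, 166 held it, 18.8%. The 1 match within this distance was Scrg1 −45.7 kb, shown above, at chr8:57410205-57410217. A further tested element, 14226 bp past the Prom1 TSS, held a match farther from its summit, at chr5:44087928-44087940. The single arm AGAACA was found in 43 of the 202, 21.3%, against 16.9% of all elements, and in 3 of the 10 elements called lower: Etnppl +32.3 kb, Prom1 −4.49 kb and Scrg1 −95.2 kb, in the last outside the 121 bp around the summit. Among all 882 elements called lower, 42.3% held this arm. The AP-1 motif TGANTCA was found in 14 of the 202, 6.93%, against 6.02%, and the homeodomain core TAATTA in 12, 5.94%, against 5.49%. The full NFI palindrome, TTGGC and GCCAA with 5 free bases between, was found in 0 of the 202, against 0.0523%. The arm can be part of the palindrome, and a match or its lack describes these letters in this window only.

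The same windows were read around 3 further lists of genes, each of which held a smaller share of elements called lower than the 6 loci, a difference that was not tested. Of the 10 called at the 6 loci, 5 lay at Etnppl. Of those 5, 2 were the adjoining start-site summits with peaks in GR-Con alone, whose direction was fixed. The first held Ezr, Fam107a and Gjb6, which the study names as regulated by GR, Zbtb16, which it names as lower without GR, and Aldoc and Hif3a, which it names for GR binding. It had 6 of 264 tested elements called lower, 2.27%, and 1 called higher by −log10 p ranks (limma), with a median log2 pileup difference of −0.22 over 153 elements. Of the 6, 3 lay at Zbtb16 (of 50 tested), 2 at Hif3a (of 29) and 1 at Ezr (of 51). Genes named as higher without GR had 1 of 236 lower, 0.424%, and 2 higher, 0.847%, with a median of 0.09. General astrocyte genes had 2 of 422 lower, 0.474%, and 3 higher, 0.711%, with a median of −0.04. The study named the genes of the first 2 lists from its own expression or binding data, so they are not independent of the comparison. Among protein-coding genes outside the list, those with the most elements called lower in the same window were the predicted gene Gm20388, with 8 of 867 tested (0.923%), Fkbp5, the GR co-chaperone and a classical GR target, with 7 of 30 (23.3%), and, with 5 each, Armc12 (of 25, 20.0%), Clpsl2 (of 28, 17.9%), Ostc (of 37, 13.5%) and Asic2 (of 128, 3.91%). Etnppl had the same number, 5 of 37 (13.5%), including the 2 start-site summits of 1 region that had no peak in GR-KO. Neighbouring genes share elements, so Armc12 and Clpsl2 are not separate from Fkbp5, nor Ostc from Etnppl, and 91.9% of 21938 genes had no element called lower.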

How the data were processed

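ATAC-seq was measured in 6 libraries, 3 per condition. The authors aligned the reads to mm10, kept reads of 1 location and called peaks in each library with MACS2 at p = 0.01 in the ENCODE pipeline; versions are not given in the labels. The deposited lists, 1 per library, hold a score scaled for display (not used), a fold ratio over the local background, and −log10 p and −log10 q values at each summit. The reads and a table of counts were not used here, so the study's count test was not repeated, and total depth is not known. Per the labels, each library is a pool of animals, and groups and replicate numbers come from the sample titles.

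Summits of all lists were joined within 200 bp into elements 401 bp wide. An absent peak was ranked lowest. Normal scores of within-library ranks were compared with limma 3.58.1 (R 4.3.3), with a variance trend and Benjamini-Hochberg adjustment over all elements, called at 0.05. Ranks of −log10 p and of fold were the planned results. MACS2's fold, (pileup + 1)/(background + 1), and Poisson p were solved for a whole-number pileup, which matched every peak within 0.01 in −log10 p. The tests were tried first on simulated data. Replicate numbers did not pair the samples: the deviations of same-numbered libraries correlated by 0.024, −0.0008 and 0.021, under the 0.1 required.

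The genes, comparison lists, marker lists and tests were chosen with earlier results of these data known. Elements were named by a rule: nearest the TSS, highest rank, smallest p in each direction, called by either ranking, or present in 1 condition alone. Elements named for pileup alone, and the pileup fits without the trend, with a robust prior or leaving out a library, were chosen after seeing the data. Motifs were searched within 100 bp of the summit on both strands with Python 3.11.15, in the mm10 genome.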

Additional observations from a re-analysis of the deposited data

How the results depend on the processing

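At the 6 loci, 10 elements were called lower and 1 higher by −log10 p ranks, of 882 and 661 in all. Counting each element by the strongest peak that covers it gave 9 lower and 0 higher there and turned the sign of the shoulder at the Prom1 TSS to −0.092 (adjusted p = 0.974, limma). With a peak required in all 6 libraries the calls in all were 1964 lower and 2027 higher, and 15 lower and 0 higher at the 6 loci. Centred log2 values gave 2168 and 3514, with 14 lower and 0 higher at the 6 loci. Without the variance trend there were 1432 and 1018, with 3 lower and 2 higher at the 6 loci. Scaled pileup gave 4352 and 2193 with the floor (36 and 0 at the 6 loci) and 3145 and 4678 with the median (30 and 0), so 66.5% and 40.2% of all calls were lower. The change of scaling moved the median of all elements by 0.08 (log2). Restricted to each gene and 2 kb before its TSS, 5 were lower and 0 higher.

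By fold ranks the calls were 112 lower and 53 higher in all, and 1 and 0 at the 6 loci. Equal list lengths gave 34 higher. The strongest covering peak gave 885 and 423 (6 lower at the 6 loci), at least 3 libraries 82 higher (2 lower at the 6 loci), all 6 libraries 243 and 173 (3), centred log2 values 357 and 309 (3), and no variance trend 1398 and 1007 (4, and 2 higher).

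For scaled pileup, alternatives were chosen after seeing the data. Without the trend there were 1963 lower and 770 higher in all and 18 lower at the 6 loci. With each element's own spread alone, limma called 0 lower and 1 higher in all and 0 at the 6 loci, where 38 of 98 were lower and 0 higher at an unadjusted p under 0.05, against 8.45% and 4.21% of all elements.

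Replicate numbers did not pair the libraries. With a replicate block, −log10 p ranks called 345 lower and 167 higher in all and 6 lower at the 6 loci, and fold ranks called 0 and 0 in all and 0 at the 6 loci.

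Leaving out 1 library at a time, −log10 p ranks called 105 to 500 lower and 147 to 288 higher in all, and 3 to 10 lower and 0 to 1 higher at the 6 loci, with 3 lower without GR-Con 1 and without GR-Con 2. The element called higher was lost without GR-KO 2 and without GR-KO 3. Fold ranks called 0 to 3 lower and 0 to 1 higher in all, and 0 at the 6 loci. Scaled pileup called 2336 to 4869 lower and 1346 to 1875 higher in all, and 21 to 35 lower and 0 higher at the 6 loci, with 21 without GR-Con 1. Differences in peak number ranged from −8 to −5 at Aldh1a1, −10.5 to −9 at Cntn1, −9.17 to −8 at Etnppl, −3.83 to −2.17 at Fbln1, −7.33 to −3.83 at Prom1 and −4.17 to −1.17 at Scrg1. The cause of these changes was not tested.

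Cntn1 +61.5 kb was called under every alternative by −log10 p ranks. With the strongest covering peak and without the trend, the same 7 of the 10 lower elements were lost, all but Cntn1 +61.5 kb and the pair at the Etnppl TSS, among them Etnppl +16.6 kb (adjusted p = 0.0556 and 0.0578) and +32.3 kb (0.0582 and 0.0537, limma). With the covering peak the other 6 of the 9 called were further elements. The replicate block lost 4. The lists name no depth, and a peak under the calling threshold is not listed, so a complete loss at the Etnppl TSS cannot be told apart from a weak remnant.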
